A study of Mus musculus with 11 samples.

Results

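The width of the H3K4me3 peak at each gene start in nephron progenitors was set beside the RNA level of the same gene in metanephric mesenchyme (MM), the embryonic tissue that holds those progenitors. For each gene, the widest cap mesenchyme peak with at least 1 bp within 1000 bp of the gene's outermost annotated start was taken, and MM FPKM (fragments normalized to transcript length and to the mapped fragments of the library) was summed over the gene's transcripts. Both values were at hand for 21383 of 21887 protein-coding genes, which are described here, and for 10626 long noncoding genes. The 2 sets made up 32009 of 34614 genes of these kinds in the RefSeq table. The H3K4me3 and H3K27me3 peak lists came from Cited1-RFP+ cap mesenchyme at E18.5, from mice carrying the Cited1nuc-TagRFP-T reporter, of (C57BL/6 x DBA)F1 origin and kept on C57BL/6J (N5). The RNA came from MM of C57BL/6 wild-type kidneys at E11.5, separated manually. For comparison, the series holds ureteric epithelium, as Hoxb7-GFP+ cells with the Hoxb7myr-Venus/+ genotype at E15.5 for chromatin and as ureteric bud (UB), taken in the same way as MM from wild-type C57BL/6 kidneys at E11.5, for RNA. It also holds chromatin of wild-type E14 embryonic stem (ES) cells of strain 129/Ola at passage 15. The labels give 1 sample of each kind, so no value has a replicate spread, no test was made, and the intervals given are exact binomial (Clopper-Pearson) 95% intervals over genes, which cover counting error only. The ChIP and the RNA differ in stage, in mouse strain and in how the cells were collected, and the effects of these cannot be told apart. MM dissected at E11.5 contains more than the sorted population, and fewer cells of a type cannot be told apart from less RNA per cell.

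Trimethylation of lysine 4 on histone H3 marks the nucleosomes around active and poised promoters, mostly those rich in CpG, and is laid down by the SET1 and MLL methyltransferase complexes. At most genes the mark covers a short stretch around the start, while at some, often regulators of cell identity, it spreads over a broad domain. H3K27me3, the mark of Polycomb repressive complex 2, can lie on the same promoter, a state described as bivalent at developmental regulators. Nephron progenitors are the Six2-positive and Cited1-positive mesenchyme that caps the ureteric tips and gives rise to the epithelium of the nephron.

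The promoters below show the kinds of gene that the widths and the RNA set apart: 2 nephron progenitor regulators with broad peaks and RNA, 2 genes with peaks over 4 kb and almost no RNA, and 3 genes with RNA of 10 FPKM or more and no peak at the start. Each run holds 300 bases, 250 before and 50 after the start, from RefSeq promoters on build GRCm38.p6 (mm10), printed 5′ to 3′ on the strand of the gene. Capitals mark each match, on either strand, to the letters TATAAA of the TATA box, to CCAAT of the CCAAT box or to GGGCGG of the GC box. Six2, the transcription factor that keeps nephron progenitors undifferentiated, lies on the minus strand at chr17:85688205-85688504. Sall1, a zinc finger factor needed for kidney development, lies on the minus strand at chr8:89044113-89044412. Lhx1, a homeodomain factor of the first nephron epithelia and of the ureteric bud, lies on the minus strand at chr11:84525485-84525784. Ihh, the Indian hedgehog ligand, lies on the minus strand at chr1:74951623-74951922. Hba-x, an embryonic alpha-like globin, lies on the plus strand at chr11:32276350-32276649. Hbb-y, an embryonic beta-like globin, lies on the minus strand at chr7:103853158-103853457. Col3a1, the collagen III chain of mesenchyme, lies on the plus strand at chr1:45311288-45311587.
Six2: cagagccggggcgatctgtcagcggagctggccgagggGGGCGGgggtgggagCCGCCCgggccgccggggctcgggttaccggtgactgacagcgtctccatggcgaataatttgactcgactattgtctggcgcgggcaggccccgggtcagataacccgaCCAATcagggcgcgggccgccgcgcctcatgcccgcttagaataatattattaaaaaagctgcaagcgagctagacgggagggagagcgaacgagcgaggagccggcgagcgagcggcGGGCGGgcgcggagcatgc
Sall1: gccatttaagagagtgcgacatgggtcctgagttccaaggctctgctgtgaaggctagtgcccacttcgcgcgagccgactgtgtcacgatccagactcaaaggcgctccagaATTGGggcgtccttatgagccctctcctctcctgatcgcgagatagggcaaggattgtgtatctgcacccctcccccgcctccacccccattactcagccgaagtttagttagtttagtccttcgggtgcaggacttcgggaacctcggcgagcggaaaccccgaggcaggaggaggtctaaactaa
Lhx1: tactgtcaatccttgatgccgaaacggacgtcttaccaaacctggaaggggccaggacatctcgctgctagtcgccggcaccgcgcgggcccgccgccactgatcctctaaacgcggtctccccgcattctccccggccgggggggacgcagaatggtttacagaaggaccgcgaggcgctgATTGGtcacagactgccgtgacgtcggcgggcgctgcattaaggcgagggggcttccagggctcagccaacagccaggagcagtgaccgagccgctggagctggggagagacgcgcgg
Ihh: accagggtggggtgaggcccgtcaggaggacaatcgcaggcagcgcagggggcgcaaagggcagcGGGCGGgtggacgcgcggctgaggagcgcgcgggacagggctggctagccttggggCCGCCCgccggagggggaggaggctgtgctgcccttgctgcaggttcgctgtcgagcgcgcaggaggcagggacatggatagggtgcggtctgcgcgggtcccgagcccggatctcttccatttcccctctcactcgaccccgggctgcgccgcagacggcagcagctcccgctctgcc
Hba-x: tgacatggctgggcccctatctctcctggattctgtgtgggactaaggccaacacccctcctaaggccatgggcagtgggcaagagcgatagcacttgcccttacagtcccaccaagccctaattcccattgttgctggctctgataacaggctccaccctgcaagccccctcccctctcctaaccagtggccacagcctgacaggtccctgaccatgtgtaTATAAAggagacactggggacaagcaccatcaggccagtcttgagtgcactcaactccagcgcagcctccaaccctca
Hbb-y: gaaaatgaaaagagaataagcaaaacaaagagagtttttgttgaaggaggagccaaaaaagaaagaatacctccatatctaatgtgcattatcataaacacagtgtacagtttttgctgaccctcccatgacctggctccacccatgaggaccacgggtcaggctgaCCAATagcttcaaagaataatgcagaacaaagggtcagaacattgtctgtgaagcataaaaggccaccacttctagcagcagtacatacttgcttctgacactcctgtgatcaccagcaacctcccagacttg
Col3a1: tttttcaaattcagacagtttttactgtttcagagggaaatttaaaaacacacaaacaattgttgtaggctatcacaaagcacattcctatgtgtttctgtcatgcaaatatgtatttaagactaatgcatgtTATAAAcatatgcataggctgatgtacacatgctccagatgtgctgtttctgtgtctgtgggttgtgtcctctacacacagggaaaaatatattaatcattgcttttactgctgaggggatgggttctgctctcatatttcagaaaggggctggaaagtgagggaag

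The Six2 promoter held 37 CpG and 3 GGGCGG matches, and the Sall1 promoter 18 CpG and none. The Lhx1 promoter had 31 CpG and the Ihh promoter 30. The 3 promoters without a peak had far fewer, with 2 CpG in Hba-x, 1 in Hbb-y and 0 in Col3a1, and 2 of these, Hba-x and Col3a1, held a TATAAA match. The median over the 10347 coding promoters with a sequence at the start used was 10 CpG. By width class, the median CpG count per promoter was 2 with no peak, 7 under 1 kb, 16 at 1 to 2 kb, 22 at 2 to 4 kb and 25 at 4 to 8 kb. It was lower again at 8 kb or more, where the median ratio of observed to expected CpG was 0.718, against 0.833 at 4 to 8 kb and 0.805 at 2 to 4 kb. TATAAA stood in 28.5% of promoters with no peak (27.2% to 29.9%, 1262 of 4422), in 6.62% at 2 to 4 kb (5.809% to 7.502%, 227 of 3430), in 9.48% at 4 to 8 kb (7.26% to 12.1%, 57 of 601) and in 2 of 34 at 8 kb or more, against 16.8% of all coding promoters. GGGCGG stood in 7.42% of promoters with no peak, in 74.2% at 4 to 8 kb and in 55.9% at 8 kb or more, against 41.0% of all. CCAAT varied less, between 36.9% and 47.1% over the 6 classes, against 40.3% of all. These matches describe the letters in the window only.

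MM RNA was higher in each wider class than in the one before, except that the share at 10 FPKM or more was about the same with no peak and with a peak under 1 kb. Of the 21383 coding genes, 64.3% had a cap mesenchyme peak at the start, 6.69% had one of 4 kb or wider (called broad here) and 0.407% one of 8 kb or wider. The 7625 genes with no peak had a median of 0 FPKM, and the 502 genes with a peak under 1 kb one of 0.0569 FPKM. The median was 0.745 FPKM for 4106 genes at 1 to 2 kb and 5.37 FPKM for 7719 genes at 2 to 4 kb. It was 9.17 FPKM for 1344 genes at 4 to 8 kb, with quartiles of 3.65 and 20.8 FPKM, and 16.9 FPKM for 87 genes at 8 kb or more, with quartiles of 7.95 and 29.0 FPKM. On the log2(FPKM + 1) scale, the median of the broad genes lay 2.59 above that of the 1 to 2 kb class.

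Against a background of 47.9% of all coding genes, 8.13% of the genes with no peak reached 1 FPKM (7.53% to 8.77%), and 45.8% of those at 1 to 2 kb (44.2% to 47.3%). The share was 82.8% at 2 to 4 kb (81.9% to 83.6%), 89.7% at 4 to 8 kb (87.9% to 91.2%) and 96.6% at 8 kb or more (90.3% to 99.3%). Across the range from 2 kb up, the wider classes differed more at 10 FPKM, which 16.6% of all coding genes reached. The shares at 10 FPKM were 8.28% at 1 to 2 kb (7.46% to 9.17%), 30.3% at 2 to 4 kb (29.3% to 31.3%), 46.9% at 4 to 8 kb (44.2% to 49.6%) and 69.0% at 8 kb or more (58.1% to 78.5%). Broad genes were 6.69% of the coding genes, and together the 4 to 8 kb class held 20.5% and the 8 kb class 1.68% of the summed MM FPKM of coding genes.

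**Figure D1:**
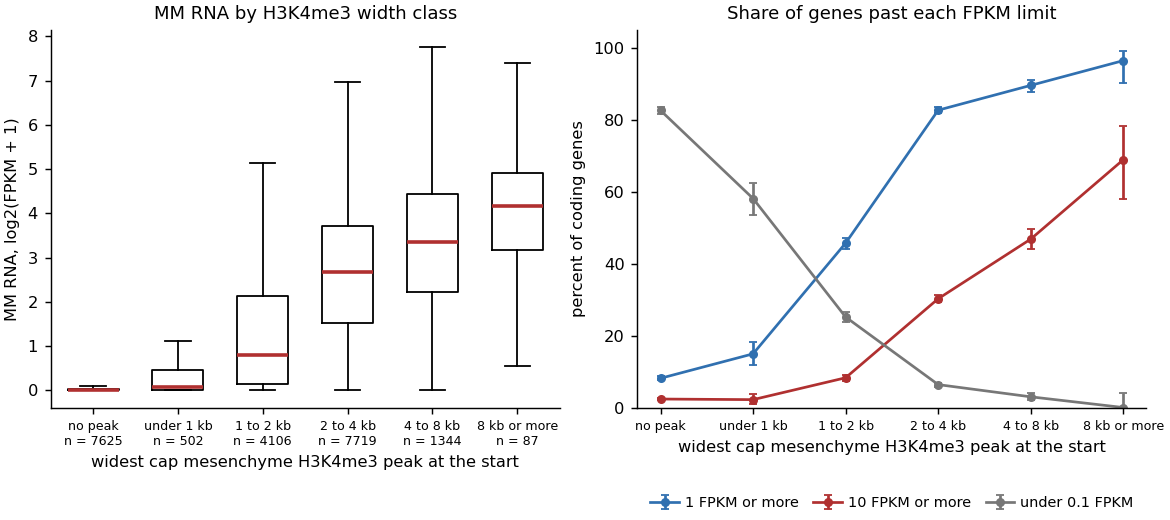
Left, MM RNA as log2(FPKM + 1) by width class of the widest cap mesenchyme H3K4me3 peak at the start (line, median; box, quartiles; whiskers, values up to 1.5 box lengths beyond it). Right, percent of coding genes at 1 FPKM or more, at 10 FPKM or more and under 0.1 FPKM, with exact binomial 95% intervals; the share at 10 FPKM or more was 69.0% in the widest class.

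Read from the RNA side, the median width was 0 kb for 6018 genes listed at 0 FPKM, 0.804 kb for 2145 genes above 0 and under 0.1 FPKM, and 1.59 kb for 2969 genes from 0.1 to 1 FPKM. It was 2.37 kb for 6693 genes from 1 to 10 FPKM, 2.78 kb for 2674 genes from 10 to 30 FPKM, 3.16 kb for 755 genes from 30 to 100 FPKM and 3.80 kb for 129 genes at 100 FPKM or more. The share of broad genes was 0.316% among genes listed at 0 FPKM and 42.6% among genes at 100 FPKM or more (34.0% to 51.6%). The 8 kb class did not keep growing with RNA, at 1.46% from 10 to 30 FPKM, 2.38% from 30 to 100 FPKM and 2.33% at 100 FPKM or more, the last of these being 3 genes. Spearman's rho between width and MM FPKM across coding genes was 0.750 over all 21383 and 0.525 over the 13758 with a peak. It was 0.209 over the 3378 genes at 10 FPKM or more with a peak and 0.127 over the 1431 broad genes. Over the same 13758 genes, rho was 0.472 between width and UB FPKM and 0.583 between the authors' peak score and MM FPKM. Genes are not independent replicates, those at 1 peak share its width, and these values describe this pair of libraries only.

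**Figure D2:**
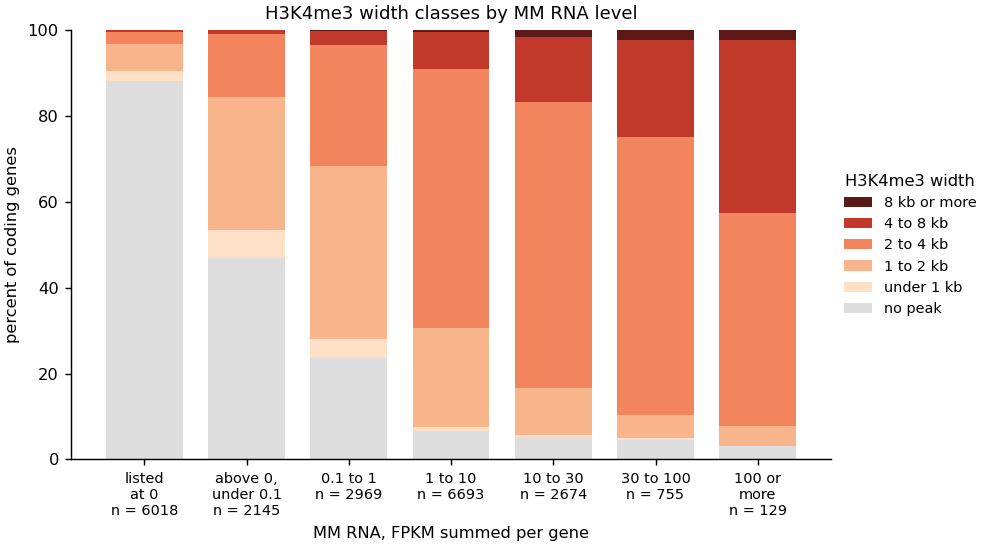
Percent of coding genes in each H3K4me3 width class (stacked bars, narrowest at the bottom) by MM FPKM of the gene. The share with no peak was 88.1% for genes listed at 0 and 3.10% at 100 FPKM or more, and the share of 4 to 8 kb was 40.3% at 100 FPKM or more.

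The cap mesenchyme H3K4me3 list held 32992 peaks with a median width of 1312 bp and a widest of 48242 bp, against 23958 in the ureteric and 67022 in the ES list. The 1431 broad genes lay at 1177 peaks, and 714 of them shared their peak with another gene start. The 87 genes of 8 kb or wider lay at 61 peaks, 60 of the 87 shared their peak, and 23 of the 87 were Hox genes. Genes that share a peak have 1 width between them and are not separate cases. The score could not rank the broad genes, since 1333 of the 1431 lay at peaks with a score of 3100 or more, close to the highest value in the list, 3233. At the 4 kb limit, Gnaq (4 kb, 12.6 FPKM) and Lhx6 (4 kb, 0.458 FPKM) fell just inside, while Brpf1 (3.999 kb, 7.05 FPKM) and Pappa (3.998 kb, 0.504 FPKM) fell just outside.

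The widest of all, chr6:52202266-52250507 (48.2 kb), covered 11 gene starts of the Hoxa cluster, whose genes encode homeodomain factors that set position along the body axis. Hoxa6 had the highest RNA at this peak, with 28.6 FPKM in MM and 1.07 FPKM in UB. Hoxa11, which the metanephric mesenchyme needs together with its paralogs to induce the ureteric bud, had 11.52 FPKM in MM and 0.0550 FPKM in UB. The peak at the Hoxc cluster measured 35.5 kb, where Hoxc10 had 61.1 FPKM in MM and 0.261 FPKM in UB. The peak at the Hoxd cluster measured 26.8 kb, where Hoxd10 had 50.3 FPKM in MM and 0.312 FPKM in UB. The Hoxb cluster peak measured 45.5 kb, and here the RNA was lower in MM, with 32.7 FPKM in MM and 62.0 FPKM in UB for Hoxb6 and 9.95 FPKM in MM and 75.8 FPKM in UB for Hoxb7. The ureteric list had no peak within 1000 bp of the starts of Hoxb3 to Hoxb8. Of the 39 Hox genes, 26 were broad and 19 reached 10 FPKM in MM, and their median was 9.95 FPKM. The group 13 genes, at the 5′ ends of the clusters, had peaks under 2 kb: Hoxa13 (0.878 kb), Hoxb13 (0.935 kb), Hoxc13 (1.32 kb) and Hoxd13 (1.35 kb) had between 0 and 0.813 FPKM in MM. Each of these starts carried an H3K27me3 peak, of 2.24 kb at the shortest and 5 kb at the longest.

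Nr2f2, the orphan nuclear receptor COUP-TFII of mesenchyme and stroma, had a 29.2 kb peak at chr7:70342760-70371919 and 235 FPKM in MM, against 20.1 FPKM in UB. Meis2, a TALE homeodomain partner of Hox proteins, had a 22.0 kb peak and 166 FPKM in MM, against 2.30 FPKM in UB. Both had their highest width in cap mesenchyme: the ureteric width was 4.69 kb at Nr2f2 and 13.4 kb at Meis2, and the ES width was 1.33 kb at Nr2f2 and 9.51 kb at Meis2. Pax2, a paired-box factor of mesenchyme and ureteric epithelium alike, had peaks of 20.8 kb in the progenitors and 19.9 kb in the ureteric list, with 15.1 FPKM in MM and 41.1 FPKM in UB. Kdm6b, an H3K27 demethylase, had a 14.1 kb peak with 15.3 FPKM in MM and 20.05 FPKM in UB, and a 14.2 kb peak in ES cells. Other genes among the 20 widest also had close RNA levels in both tissues: Bahcc1 (17.7 kb) had 9.58 FPKM in MM and 8.54 FPKM in UB, and Tnrc18 (12.9 kb) had 21.8 FPKM in MM and 20.7 FPKM in UB.

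Members of the nephron progenitor list had the widest peaks of the cell type lists and were among the more highly expressed. The list was chosen with earlier results of these data known, so it describes the cells and does not check their label. Of its 25 genes, 22 were broad, 13 reached 8 kb, 24 reached 1 FPKM and 16 reached 10 FPKM, with a median width of 8.25 kb and a median of 15.1 FPKM in MM, against 1.74 kb and 0.754 FPKM over all coding genes. Six2 had a 17.9 kb peak, chr17:85679310-85697213, and 55.5 FPKM in MM, against 1.58 FPKM in UB. Its peak also touched the start of the long noncoding gene CJ186046Rik, which had 11.8 FPKM in MM and 0.00493 FPKM in UB. The ureteric width at Six2 was 5.02 kb beside an H3K27me3 peak of 8.63 kb, and the ES width was 3.20 kb beside one of 5.77 kb. Uncx, a homeodomain factor of paraxial and kidney mesenchyme, had an 18.49 kb peak and 29.2 FPKM in MM, against 0.0772 FPKM in UB. Wt1, the Wilms tumor zinc finger factor, had 15.49 kb and 42.1 FPKM in MM, against 0.126 FPKM in UB. Eya1, a phosphatase and transcriptional coactivator of the mesenchyme, had 13.0 kb and 61.8 FPKM in MM, against 0.615 FPKM in UB. Sall1 had 13.8 kb and 26.7 FPKM in MM, against 0.276 FPKM in UB, although its ureteric and ES peaks were as wide, at 13.9 and 14.3 kb.

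The signals of the mesenchyme were also broad. Gdnf, the ligand of Ret that attracts the ureteric bud, had 8.72 kb and 10.8 FPKM in MM, against 0.0752 FPKM in UB. Bmp7, a survival factor of progenitors, had 8.31 kb and 9.65 FPKM in MM, against 31.1 FPKM in UB. Fgf9 and Fgf20, which maintain progenitors together, had 7.42 and 4.45 kb with 0.988 and 1.59 FPKM in MM, the lowest RNA on the list. Rspo1, an amplifier of Wnt signals, had 7.07 kb and 28.6 FPKM in MM, against 0.101 FPKM in UB. Cited1, whose reporter was used for the sort, had 6.74 kb but only 2.78 FPKM in MM, against 8.35 FPKM in UB. Osr1, an early marker of the lineage, had 8.29 kb and 19.9 FPKM in MM and was listed at 0 in UB.

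Not every gene of this list was broad at its start. Crym, which encodes mu-crystallin, had 3.11 kb and 9.01 FPKM in MM. Robo2, the Slit receptor that confines Gdnf expression, had no peak at its outermost start and 73.9 FPKM in MM, but a peak of 11.1 kb lay elsewhere in the gene.

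**Figure D3:**
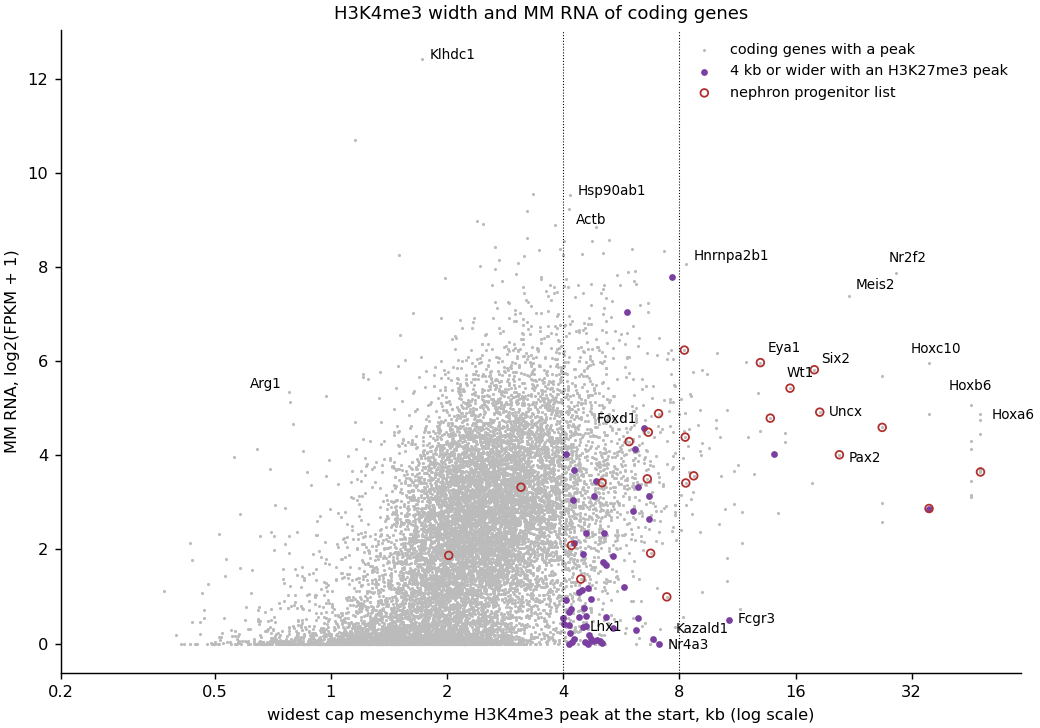
Widest cap mesenchyme H3K4me3 peak at the start (x, kb, log scale) against MM RNA (y, log2(FPKM + 1)) for coding genes with a peak. Purple points are broad genes with an H3K27me3 peak at the start, red circles the nephron progenitor list, and dotted lines mark 4 and 8 kb; Six2, Eya1 and Wt1 lie at the upper right, and Nr4a3, Kazald1 and Lhx1 at the bottom among the broad genes.

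The genes with the most RNA did not have the widest peaks. The 2 broad genes with the most RNA were Hsp90ab1, a cytosolic chaperone, with 738 FPKM in MM at a 4.17 kb peak, and Actb, cytoplasmic actin, with 601 FPKM at a 4.13 kb peak. UB RNA was higher for both, at 1287 FPKM for Hsp90ab1 and 981 FPKM for Actb. Others of the 10 highest were Rack1 and Rpl4 of the ribosome, the chaperones Hspa8 and Hsp90b1, the tubulin Tubb5 and the heterochromatin protein Cbx5, at 4.03 to 7.29 kb and 308 to 376 FPKM. In the 8 kb class the highest was Hnrnpa2b1, an RNA-binding protein, with 268 FPKM at 8.32 kb, followed by Nr2f2 and Meis2. The 2 highest coding values of all, Klhdc1 at 5468 FPKM and Magix at 1669 FPKM, came from transcripts of 177 and 50 bp, and without transcripts under 200 bp they had 0.523 and 0 FPKM. The peaks at their starts were 1.73 and 1.16 kb wide.

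The lists of genes that most cells use had median widths above the 1.74 kb of all coding genes and below the 8.25 kb of the progenitor list. Broad genes were a larger share of each list than the 6.69% of all coding genes, of which 47.9% reached 1 FPKM. The 79 cytosolic ribosomal protein genes all had a peak, of 2.11 to 6.71 kb with a median of 3.31 kb, and 14 were broad. Their median was 11.8 FPKM in MM, a value that near-identical processed copies elsewhere in the genome make uncertain gene by gene. The 21 cell cycle and replication genes with values had a median width of 3.06 kb with a median of 34.0 FPKM, and 4 were broad, among them Mki67, the proliferation antigen (4.39 kb, 97.9 FPKM in MM and 53.3 FPKM in UB). The 18 glycolysis genes had a median of 3.43 kb and 9.86 FPKM, with 4 broad, and their summed RNA was 433 FPKM in MM and 1432 FPKM in UB. Pkm, pyruvate kinase, had the widest of these peaks, 5.64 kb, with 94.6 FPKM in MM and 283 FPKM in UB. Among 16 genes for H3K4 methyltransferases, their subunits and H3K4 demethylases, all reached 1 FPKM in MM and 4 were broad, and Setd1b, a SET1 enzyme that deposits the mark, had the widest peak at its own start, 11.6 kb, and the lowest RNA of the list, 5.91 FPKM in MM and 5.57 FPKM in UB.

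The renal stroma list was the counterpart, with RNA above the progenitor list and narrower peaks. Of its 21 genes, 14 reached 10 FPKM and the median was 25.8 FPKM, but 7 were broad and the median width was 2.31 kb. Its broad members included Nr2f2, Meis2, Meis1 (11.9 kb, 62.4 FPKM), Nr2f1 (8.07 kb, 35.6 FPKM), Foxd1 and Aldh1a2 (4.49 kb, 101 FPKM). Foxd1, the defining factor of the stromal lineage, had a 6.46 kb H3K4me3 peak with a 1.88 kb H3K27me3 peak at the same start, 22.9 FPKM in MM and 0.0301 FPKM in UB. Pdgfra, the other defining marker of this list, had 25.8 FPKM in MM, no H3K4me3 peak at its outermost start and a 4.67 kb H3K27me3 peak there, with a 4.73 kb H3K4me3 peak elsewhere in the gene. Col3a1 had 35.9 FPKM in MM, against 0.347 FPKM in UB, and its only peak in the gene was 0.729 kb wide. Col1a1 (2.31 kb, 27.8 FPKM) and Col1a2 (1.59 kb, 12.7 FPKM), the chains of collagen I, had peaks at or below the median of the list. The summed RNA of the list was 1055 FPKM in MM and 79.2 FPKM in UB, and its part in the RNA of the width classes was not tested.

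**Figure D4:**
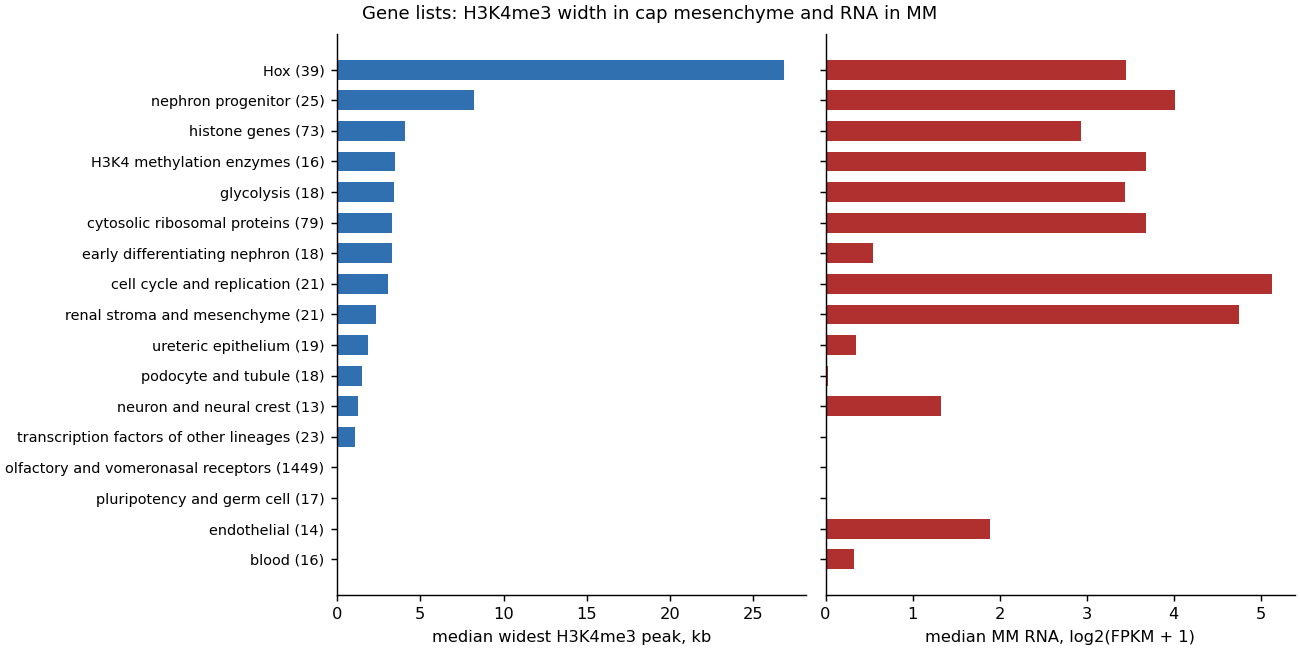
Median widest cap mesenchyme H3K4me3 peak at the start (left, kb) and median MM RNA (right, log2(FPKM + 1)) of each gene list, with the number of genes measured in parentheses. Hox genes and the nephron progenitor list had the widest peaks, at 26.8 and 8.25 kb, while endothelial genes had RNA and a median width of 0.

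Broad but silent genes were few. Against 38.2% of all coding genes, 40 of the 1431 broad genes had under 0.1 FPKM in MM (2.80%, 2.00% to 3.79%), and 142 had under 1 FPKM (9.92%, 8.42% to 11.6%). None of the 87 genes of 8 kb or wider was under 0.1 FPKM, and 3 were under 1 FPKM: Ypel4 (11.47 kb, 0.653 FPKM), Gm38469 (8.16 kb, 0.468 FPKM) and Fcgr3 (10.7 kb, 0.424 FPKM). Fcgr3, an Fc receptor of myeloid cells, also had an H3K27me3 peak of 4.25 kb that covered the whole start window. Just inside the silent limit were Erbb4 (0.0980 FPKM) and Iqcn (0.0831 FPKM), and just outside were Bricd5 (0.105 FPKM) and Tssk6 (0.105 FPKM).

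Many of the 40 did not stand alone at their peak. Of them, 32 shared the peak with another start (80%, 64.4% to 90.9%), against 49.9% of all broad genes. For 13 of the 40 (32.5%) another start at the peak had 1 FPKM or more. This was about the share among the 142 broad genes under 1 FPKM, which include the 40 (32.4%). The share over all broad genes was not counted. Of the 40, 19 were listed at 0 in MM, and 15 of these were also at 0 in UB, of which 8 were histone genes such as H3c14, H4c18 and H2ac24. Histone genes have near-identical copies, as do Srp54b and Gm2436, so a value of 0 for them is uncertain. The histone list as a whole was broad at 40 of 73 genes, with a median of 6.64 FPKM in MM, and H2ac20 had 461 FPKM in MM and 316 FPKM in UB at a 4.86 kb peak. In the other chromatin lists, 24 of the 40 silent genes had a peak of 4 kb or wider in ureteric epithelium (60%, 43.3% to 75.1%), against 57.0% of all broad genes, and 38 had one in ES cells (95%, 83.1% to 99.4%), against 79.9% of all broad genes. The histone list was taken by symbol and holds a few replacement variants beside the replication-dependent genes.

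The remaining silent genes included developmental and inducible regulators. Nr4a3, an immediate early nuclear receptor, had a 7.07 kb peak to itself at chr4:48042133-48049201 and was listed at 0 in MM, with 0.0211 FPKM in UB, and its H3K27me3 peak in the window was 281 bp long. Egr3, an immediate early zinc finger factor, had 6.84 kb and 0.0761 FPKM in MM, against 0.0476 FPKM in UB. Kazald1, a secreted protease-inhibitor-like protein, had 7.64 kb and 0.0255 FPKM in MM, against 0.0291 FPKM in UB. Hes7, an oscillating repressor of somite formation, shared a 6.93 kb peak with Aloxe3, at 0.0435 and 0.0305 FPKM in MM. Ihh had a 4.63 kb peak at chr1:74947746-74952371 and was listed at 0 in MM, and a 1.87 kb H3K27me3 peak there took the window to 99.3% covered.

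Lhx1 was silent in MM and expressed in UB. Lhx1 had a 4.90 kb peak at chr11:84521994-84526897 with 0.0532 FPKM in MM and 18.4 FPKM in UB. In cap mesenchyme, H3K27me3 covered 99.6% of its start window. In ureteric epithelium, its H3K4me3 peak was wider, 13.9 kb, with no H3K27me3 peak at the start. Lhx1 belongs to the list of early differentiating nephron genes, of which 7 of 18 were broad, 10 of 18 carried H3K27me3 and 7 were under 0.1 FPKM in MM. Over all coding genes, 6.69% were broad, 7.66% carried H3K27me3 and 38.2% were under 0.1 FPKM, the last about the share in this list. The median width over the list was 3.28 kb for the progenitors and 6.64 kb for the ureteric cells, and its summed RNA was 27.9 FPKM in MM and 260 FPKM in UB. Pou3f3, a POU factor of the distal nephron segments, was just under the broad limit at 3.90 kb, with 0.0104 FPKM in MM and 47.5 FPKM in UB. The ChIP sample was taken 7 days of gestation later than the RNA, and the width of these peaks at E11.5 was not measured.

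H3K27me3 at the start went with low RNA among the broad genes. Against 7.66% of all coding genes, 12 of the 40 broad silent genes had a cap mesenchyme H3K27me3 peak in the window (30%, 16.6% to 46.5%), as did 19 of 102 at 0.1 to 1 FPKM (18.6%, 11.6% to 27.6%) and 26 of 1289 at 1 FPKM or more (2.02%, 1.32% to 2.94%). The intervals take each gene as a separate case, although 32 of the 40 silent genes shared their peak with another start, and no test was made. Of the 8 silent genes with the peak to themselves, 7 had an H3K27me3 peak in the window. The H3K27me3 list is made of short peaks, with a median of 195 bp, and when the mark had to cover 50% of the window the counts were 6 of 40, 3 of 102 and 3 of 1289. Without the 15 genes listed at 0 in both tissues, the count was 11 of 25 broad silent genes (44%, 24.4% to 65.1%). Narrower silent genes had shares within these intervals, at 43.9% of 492 silent genes with a 2 to 4 kb peak and 39.2% of 1034 with a 1 to 2 kb peak, against 5.12% of 6305 silent genes with no peak. Of the 690 broad genes at 10 FPKM or more, 7 had an H3K27me3 peak, and it was under 0.4 kb at Grb10, Gpc3, Purb, Kdm6b and Ptpn13 but 1.88 kb at Foxd1 and 1.75 kb at Nfib.

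Expressed genes without a peak at the start were mostly genes with a peak elsewhere. Of the 3558 genes at 10 FPKM or more in MM, 180 had no peak within 1000 bp of the outermost start (5.06%, 4.36% to 5.83%). Of all coding genes, 35.7% had no such peak. A widest peak under 1 kb lay at 11 of the 3558 (0.309%, 0.154% to 0.553%), against 2.35% of all coding genes. Of the 180, 135 had a peak at another RefSeq start, and 175 had one in the gene or within 1000 bp of it. The same shares over all 7625 genes with no peak at the start were not counted, so these are a description only. In 36 the peak elsewhere in the gene was 4 kb or wider, as at the imprinted genes Igf2 (200 FPKM, 4.95 kb) and Mest (178 FPKM, 6.44 kb) and at Ldb1, a LIM-domain binding cofactor (51.7 FPKM, 6.19 kb). Ureteric epithelium had a peak at the same start in 12 of the 180 and ES cells in 58 (32.2%, 25.5% to 39.6%). Of all 7625 genes with no cap mesenchyme peak, 1.90% had one in ureteric epithelium and 15.3% in ES cells, and of all coding genes 60.4% had one in ureteric epithelium and 68.3% in ES cells. Just inside the 10 FPKM limit were Fam91a1 (10.004 FPKM) and Mef2a (10.1 FPKM), and just outside were Tbc1d14 and Pdpk1 (9.99 FPKM each).

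The 5 expressed genes with no peak anywhere in the gene included 3 embryonic globins of primitive red cells. Hbb-y had 74.5 FPKM in MM and 10.9 FPKM in UB, Hba-x had 61.6 FPKM in MM and 4.02 FPKM in UB, and Hbb-bh1 had 10.8 FPKM in MM and 1.34 FPKM in UB. The others were Zfp652 (14.5 FPKM) and Psme2b (12.4 FPKM), the second a near-identical copy of Psme2, so that its value is uncertain. Of the 16 blood genes, 14 had no peak at the start, the other 2 had one under 2 kb, and the summed RNA was 152 FPKM in MM and 16.9 FPKM in UB. The defining markers Hba-a1 and Ptprc had 0 and 0.198 FPKM in MM.

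Endothelial genes had RNA and peaks of at most 2.18 kb or none. Of 14, 12 reached 1 FPKM in MM, none was broad, 8 had no peak at the start, 6 had an H3K27me3 peak there, and 5 of those at 1 FPKM or more had no peak in the gene at all. Cdh5, the VE-cadherin that defines the type, had 7.97 FPKM in MM, 0.760 FPKM in UB and no cap mesenchyme peak in the gene, while its ureteric width was 4.005 kb. Pecam1, the other defining marker, had 4.52 FPKM in MM, 0.597 FPKM in UB and only a 0.884 kb peak in the gene, while its ureteric width was 6.34 kb. The summed RNA of the list was 53.5 FPKM in MM and 5.84 FPKM in UB. Of 13 neuron and neural crest genes, none was broad and 7 reached 1 FPKM, and the defining marker Sox10 had 0.295 FPKM in MM and 0.0135 FPKM in UB. The part of these cells in the RNA of genes without a broad peak was not tested.

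The 11 expressed genes with a narrow peak had 0.562 to 0.987 kb at the start, and 7 of them had a wider peak in the gene. The same share over all 502 genes with a peak under 1 kb was not counted, so this is a description only. Arg1, the urea cycle enzyme arginase, was the highest, with 39.8 FPKM in MM, 0.175 FPKM in UB and a 0.781 kb peak that was the widest in its gene. Sap18b (34.2 FPKM), Rpl32l (14.6 FPKM) and Eif3j2 (10.8 FPKM) likewise had no wider peak, and as near copies of other genes their RNA is uncertain. Dab2, an endocytic adaptor, had 11.6 FPKM in MM and 0.458 FPKM in UB, with 0.867 kb at the start and 2.80 kb elsewhere in the gene.

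Marker lists of cells that form later or belong elsewhere had mostly peaks under 4 kb or none, as did all coding genes, of which 6.69% were broad. The other shares over all coding genes were 64.3% with a peak, 7.66% with H3K27me3, 38.2% under 0.1 FPKM and 47.9% at 1 FPKM or more. Of 18 podocyte and tubule genes, 3 were broad and 13 were under 0.1 FPKM. Lmx1b, a podocyte transcription factor, had 5.17 kb and 8.99 FPKM in MM, against 0.0730 FPKM in UB. The slit diaphragm gene Nphs1 and the transporter genes Slc22a6 and Slc34a1 were listed at 0 in MM and had peaks of 1.25, 2.36 and 1.83 kb, with no ureteric peak at these starts. Of 19 ureteric genes, 2 were broad in cap mesenchyme, Hoxb7 within its cluster and Wnt11, a Wnt ligand of the ureteric tip, with 5.77 kb and 1.31 FPKM in MM, against 32.3 FPKM in UB. Ret, the Gdnf receptor, had 2.04 kb and 0.341 FPKM in MM, against 72.8 FPKM in UB, and the summed RNA of the list was 18.4 FPKM in MM and 3049 FPKM in UB. All 23 transcription factors of other lineages carried H3K27me3 at the start, 14 also had an H3K4me3 peak, the widest of 3.005 kb, and 21 were under 0.1 FPKM. Of 1449 olfactory and vomeronasal receptor genes, 7 had a peak and none reached 1 FPKM, and among 17 pluripotency and germ cell genes 4 had a peak, the widest of 1.40 kb.

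The genes of 8 kb or wider were 4-fold higher in MM than in UB more often than those of narrower classes. The median log2 difference of MM minus UB was -0.46 over 9588 coding genes at 1 FPKM or more in both, so that the median gene had the higher value in UB. Over genes at 1 FPKM or more in either tissue, 29 of 84 in the 8 kb class were at least 4-fold higher in MM on the FPKM + 1 scale (34.5%, 24.5% to 45.7%), against 1.83% of all, and 2, Hoxb7 and Hoxb8, were 4-fold lower, against 4.15% of all. At 4 to 8 kb, 47 of 1247 were 4-fold higher (3.77%, 2.78% to 4.98%) and 43 were 4-fold lower (3.45%). Without the Hox genes the count at 8 kb or more was 15 of 61 (24.6%, 14.5% to 37.3%), and with 1 gene per peak it was 19 of 59 (32.2%, 20.6% to 45.6%). The gene kept at each peak, here and below, was that with the highest MM FPKM, a choice that favours MM. It left out Hoxb7 and Hoxb8, and 0 of the 59 were 4-fold lower. Over genes at 10 FPKM or more in either tissue, 26 of 69 were 4-fold higher (37.7%, 26.3% to 50.2%), against 2.31% of all. The remaining counts are over genes chosen for 10 FPKM or more in MM alone, a limit that keeps out genes high only in UB, and are given as a description. Of these genes, 3.4% were 4-fold higher in MM. The share was 43.3% at 8 kb or more (26 of 60, 30.6% to 56.8%), 5.24% at 4 to 8 kb (33 of 630, 3.63% to 7.28%) and 1.33% at 2 to 4 kb (31 of 2337, 0.903% to 1.88%). Median MM FPKM in these 3 groups was close, at 23.0 at 8 kb or more, 21.8 at 4 to 8 kb and 18.4 at 2 to 4 kb. Within 10 to 30 FPKM the widest class had 15 of 39 genes past the limit, and within 30 to 100 FPKM 9 of 18. With 1 gene per peak, again kept by its MM FPKM, the share at 8 kb or more was 37.5% (18 of 48). Without the Hox genes it was 31.8% (14 of 44), and with UB scaled to the MM coding total it was 46.7% (28 of 60). Without a peak, 8.33% passed (15 of 180), among them Col3a1, Pdgfra and the 3 embryonic globins.

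The other chromatin lists were read at the same starts, and some of the shares at 8 kb or more rested on the 23 Hox genes. Ureteric peaks of 4 kb or wider lay at 74.7% of the 87 genes of 8 kb or more (64.3% to 83.4%) and 55.9% of the 4 to 8 kb genes, against 5.07% of all coding genes. ES peaks of 4 kb or wider lay at 58.6% (47.6% to 69.1%) and 81.3% (79.1% to 83.3%) of the same classes, against 20.3% of all. Only 3 of the 23 Hox genes had such an ES peak, and without them the share at 8 kb or more was 75% (62.6% to 85.0%), an interval that holds the 4 to 8 kb value. With 1 gene per peak it was 67.2% (54.0% to 78.7%). The median ES width was 4.48 kb at 8 kb or more and 5.70 kb at 4 to 8 kb. ES H3K27me3 lay at 54.0% of the 8 kb class (43.0% to 64.8%) and 16.7% of the 4 to 8 kb class (14.7% to 18.8%), against 12% of all. It lay at all 23 Hox genes, and without them the share was 37.5% (25.7% to 50.5%), and with 1 gene per peak 47.5% (34.6% to 60.7%). Ureteric H3K27me3 lay at 24.1% and 7.14% of these classes, against 11% of all, and at 15.6% (7.76% to 26.9%) of the widest class without the Hox genes. Cap mesenchyme H3K27me3 lay at 3.45% of the genes of 8 kb or more and 4.02% of those of 4 to 8 kb. Genes of 8 kb or more were also shorter, with a median length of 9.90 kb, against 23.2 kb at 4 to 8 kb.

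**Figure D5:**
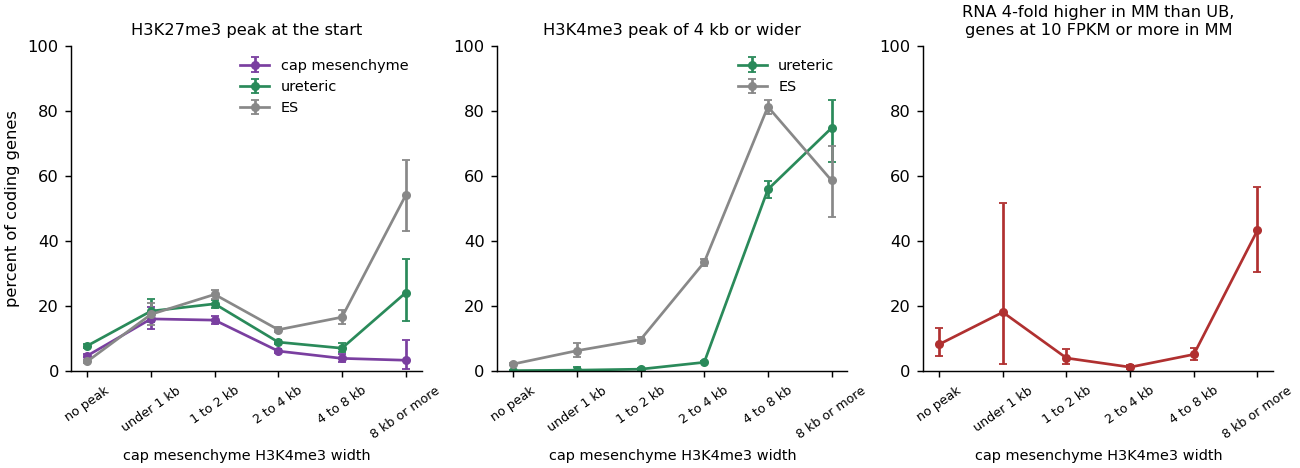
By cap mesenchyme H3K4me3 width class (x), percent of coding genes with an H3K27me3 peak at the start (left), with an H3K4me3 peak of 4 kb or wider in ureteric epithelium or ES cells (middle), and, of genes at 10 FPKM or more in MM, percent at least 4-fold higher in MM than in UB RNA (right). Bars are exact binomial 95% intervals; the widest class reached 54.0% for ES H3K27me3 and 43.3% for MM over UB RNA.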

How the data were processed

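Histone ChIP (native, MNase-digested chromatin, anti-H3K4me3 antibody ab8580 for H3K4me3, ThruPLEX libraries, per the labels' protocols) and RNA (SMARTer Stranded Total RNA kit, per the labels' protocols) were measured in 1 sample of each kind; the input libraries were not analysed here. The submitters' processing notes name Bowtie2, MACS, TopHat, Cufflinks, Cuffdiff and build mm10, with versions not given in the sources used here. FPKM values per transcript were made by the authors with Cuffdiff, per the file headers, and deposited as 1 value per tissue. The peak lists were deposited by the authors as positions with a score per peak, whose meaning is not given in the sources used here, nor is the number of libraries pooled behind each list. The score is the authors' own value. Read depth is unknown.

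From these, transcript FPKM was summed per gene with RefSeq names, starts and strands (GRCm38.p6). Of 131951 transcripts of the classes used, 106355 were paired by accession, 17906 by locus and 4138 by span, and 3552 were left unpaired. Strand came from the promoter table for 27025 of 34614 genes and was inferred from the order of the Cuffdiff locus numbers along the chromosome for 6555; in the 24308 genes with both sources they were the same, and 1034 genes had none. A further 34 genes were left out because Cuffdiff gave no usable estimate. The outermost start was used, and a peak counted with 1 bp of overlap in the 1000 bp on each side. Genes with no listed peak have width 0. Differences are on the log2(FPKM + 1) scale, which understates the change of low genes. With 1 sample a group there is no test. No column of per-sample values was left unmapped (0).

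Python 3.11.15, numpy 2.4.6, pandas 2.3.3, scipy 1.17.1 and matplotlib 3.10.9 were used, and the width and overlap steps were tested on simulated peaks. Genes were named as the 20 widest peaks (1 gene per peak), the 20 widest broad silent genes with no start at 1 FPKM at the peak, the 20 highest expressed genes with no peak and with a narrow peak, the 10 highest of the 4 kb and 8 kb classes, members of 17 gene lists and the genes next to each limit. Genes outside this rule were named after their values were seen: Klhdc1 and Magix, the 3 genes of 8 kb or wider under 1 FPKM, the broad genes with H3K27me3 at 10 FPKM or more, histone and duplicate-gene examples, and the expressed genes without any peak in the gene. The set of genes, the lists and the limits were chosen with earlier results of these data known. Alternatives changed the start window, start choice, gene set, peak score, peak joining, shared peaks, RNA value, scaling, pseudocount and limits. Some members of the lists are counted but not reported here by name.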

Additional observations from a re-analysis of the deposited data

How the results depend on the processing

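The difference in median RNA between width classes stayed above 0 in every alternative. The other results are counts and shares, which cannot change sign, so only their size was compared. The median log2(FPKM + 1) of broad genes minus that of the 1 to 2 kb class, 2.59, moved beyond its interval to 2.38 with the higher-scoring peaks, 2.77 with peaks at 1 start, 2.23 with the highest transcript, 3.44 with FPKM rescaled to a fixed coding total, 3.51 with a pseudocount of 0.1, 2.03 for genes at 0.1 FPKM or more and 2.83 at a 5 kb limit. The percent of broad genes at 1 FPKM or more, 90.1%, was 80.1% with long noncoding genes added, 92.3% with peaks at 1 start, 87.4% with the highest transcript, 96.8% rescaled and 92.7% at 5 kb. The 40 broad silent genes became 118 with long noncoding genes, 8 with peaks at 1 start, 20 rescaled, 107 at 3 kb, 12 at 5 kb, 19 at a silent limit of 0, 142 at 1 FPKM and 25 without genes at 0 in both tissues. The 180 expressed genes with no peak became 299 when the peak had to cover the start base, 45 over any start, 107 with the highest transcript, 532 rescaled, 283 at 5 FPKM, 80 at 20 FPKM and 5 over the whole gene. The 11 with a narrow peak became 4 over any start, 2 with the higher-scoring peaks, 55 rescaled, 18 at 5 FPKM, 4 at 20 FPKM, 0 under 0.5 kb and 351 under 2 kb. The share of the widest class 4-fold higher in MM, 43.3%, was 25% at a 6 kb limit and 60% at 10 kb. Without Hox genes, the shares of the widest class with a broad ES peak and with ES H3K27me3, 58.6% and 54.0%, were 75% and 37.5%. Leaving out genes at 0 in both tissues, reading the whole gene and every alternative for these last shares were chosen after seeing the data. Rescaling moves each FPKM limit, so its counts hold other genes. The causes of the other moves were not tested. No paired analysis was possible because the labels give 1 sample of each kind.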

Other observations

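Long noncoding genes followed the width classes at far lower RNA. Of 10626, 316 reached 1 FPKM in MM and 42 reached 10 FPKM, of which 8 had no peak at the start. The median was 0 FPKM in each class under 2 kb, 0.0776 FPKM at 2 to 4 kb, 0.346 FPKM at 4 to 8 kb and 2.07 FPKM at 8 kb or more, and Spearman's rho across the 2670 with a peak was 0.425, as a description. Of the 273 broad long noncoding genes, 242 shared their peak with another start, and 59 of these reached 1 FPKM, while 17 of the 31 with the peak to themselves did.

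Malat1, an abundant nuclear RNA, had 649 FPKM in MM and 616 FPKM in UB at a 9.75 kb peak. Neat1, the scaffold of paraspeckles, had 1.07 FPKM in MM and 1.40 FPKM in UB at a 7.34 kb peak. Mir17hg, the host of the miR-17 cluster, had 14.5 FPKM in MM and 13.4 FPKM in UB at 4.34 kb. Among those at a shared peak, Foxd2os had 43.1 FPKM in MM and was listed at 0 in UB, at the 14.4 kb peak where Foxd2 had 5.84 FPKM in MM and 0.0140 FPKM in UB. Hoxa11os had 12.7 FPKM in MM and 0.198 FPKM in UB at the Hoxa peak, and B130024G19Rik, at the Nr2f2 peak, had 12.4 FPKM in MM and 0.0211 FPKM in UB. Of the 18 long noncoding genes of 8 kb or wider at 1 FPKM or more, 8 were 4-fold higher in MM on the FPKM + 1 scale, against 6.65% of all 316 at 1 FPKM or more. All 8 lay at the peak of a coding gene that was also 4-fold higher in MM. Counting by strand is not stated, so RNA of genes that overlap cannot be told apart.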
